A study of Homo sapiens with 8 samples.

Results

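The BCL2 family genes were examined in Jurkat cells, a human T-cell acute lymphoblastic leukemia (T-ALL) line, in which the protein CBAP (gene TMEM102) had been lowered or removed. The members were taken by name from the deposited expression table, and all 10 were found among its 13453 genes: the anti-apoptotic BCL2, MCL1 and BCL2L1, the effectors BAX and BAK1, and the BH3-only genes BCL2L11, BBC3, PMAIP1, BID and BAD. The values are FPKM, a unit that relates the fragments of a gene to the length of its exons and to the number mapped. How the authors scaled the libraries to each other is not stated. All 10 members had a mean of at least 1 FPKM over the 8 libraries and were among the 11427 genes tested.

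There were 4 conditions with 2 RNA-seq libraries each. The CBAP-expressing cells were sh-Ctrl cells, which carry a non-targeting control shRNA, and CBAP-reconstituted cells, in which a CBAP-GFP fusion was put back into a CRISPR/Cas9 CBAP knockout. The CBAP-deficient cells were sh-CBAP cells, with an shRNA against CBAP, and CBAP-KO cells, the CRISPR/Cas9 knockout expressing GFP alone. The shRNA cells were lentiviral and puromycin-selected, and the paper calls them stable clones. The knockouts were clones grown from single sorted cells, and their derivatives with GFP or CBAP-GFP are also called stable clones. A clone and its CBAP state therefore cannot be told apart in any of these comparisons. The labels do not say whether the 2 libraries of a condition came from separate cultures, and p-values therefore measure the spread between these libraries, which may be technical. That spread was pooled per gene over all 4 conditions, which were not alike in it. The median log2 difference between the 2 libraries was 0.12 in sh-Ctrl and 0.18 in sh-CBAP cells. It was 0.044 in CBAP-reconstituted and 0.060 in CBAP-KO cells.

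The family controls the permeability of the outer mitochondrial membrane. BAX and BAK1 form pores in that membrane that release cytochrome c and lead to caspase activation, while BCL2, BCL-XL (from BCL2L1) and MCL1 bind and restrain them. BH3-only proteins carry death signals to both groups: BIM (BCL2L11), PUMA (BBC3) and BID bind all the anti-apoptotic proteins, whereas BAD binds mainly BCL2 and BCL-XL, and NOXA (PMAIP1) mainly MCL1. Developing and leukemic T cells depend on BCL2, BCL-XL or MCL1 to different degrees, and BIM is known for its part in the removal of self-reactive thymocytes.

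What unites the members is the BH3 core, part of a short helix. The coding bases around it are shown because BH3-only proteins and effectors insert this helix into the groove of their anti-apoptotic partners. They were read 5′ to 3′ from the GRCh37 genome along the GENCODE 44 canonical transcript, and capitals mark the 6 codons of the core.
BCL2: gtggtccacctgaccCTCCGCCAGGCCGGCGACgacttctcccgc
MCL1: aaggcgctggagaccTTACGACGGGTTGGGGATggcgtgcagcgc
BCL2L1: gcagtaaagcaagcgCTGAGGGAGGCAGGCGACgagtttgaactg
BCL2L11: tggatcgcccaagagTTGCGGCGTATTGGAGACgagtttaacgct
BAX: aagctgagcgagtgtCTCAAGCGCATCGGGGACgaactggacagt
BAK1: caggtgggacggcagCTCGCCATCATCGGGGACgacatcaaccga
BBC3: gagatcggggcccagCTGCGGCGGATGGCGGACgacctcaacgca
PMAIP1: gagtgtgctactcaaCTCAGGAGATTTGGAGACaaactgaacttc
BID: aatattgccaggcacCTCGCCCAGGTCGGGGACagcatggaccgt
BAD: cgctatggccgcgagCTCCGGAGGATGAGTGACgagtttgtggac
The rule sought a leucine codon, any 3 codons, a glycine or alanine codon and an aspartate codon. Serine was allowed in place of glycine or alanine only where no such match existed, as in BAD. By this rule each of the 10 reading frames held the core 1 time, although no 2 of the 18-base cores were the same. The stretches lie in exon 2 of BCL2 (chr18:60985582-60985626, minus strand), exon 1 of MCL1 (chr1:150551341-150551385, minus) and exon 2 of BCL2L1 (chr20:30309725-30309769, minus). Those of the effectors lie in exon 3 of BAX (chr19:49459029-49459073, plus) and exon 4 of BAK1 (chr6:33543164-33543208, minus). Among the BH3-only genes, they lie in exon 3 of BCL2L11 (chr2:111907665-111907709, plus), exon 3 of BBC3 (chr19:47729836-47729880, minus), exon 2 of PMAIP1 (chr18:57569890-57569934, plus), exon 4 of BID (chr22:18222181-18222225, minus) and exon 3 of BAD (chr11:64039094-64039138, minus). Codons for the asparagine, tryptophan, glycine and arginine of the BH1 domain were also present in 5 members (BCL2, MCL1, BCL2L1, BAX and BAK1) and in none of the 5 BH3-only frames, which ranged from 54 codons (PMAIP1) to 198 (BCL2L11).

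Several features of the libraries bear on the values. TMEM102 had 4.07 and 4.74 FPKM in sh-Ctrl and 2.69 and 2.89 in sh-CBAP cells (together the shRNA set), but the CBAP-reconstituted and CBAP-KO libraries (together the CRISPR set) have it listed at 0 throughout, so it cannot check their labels. Across the table, 710 genes were listed at 0 in some library and at 5 FPKM or more in another, and BCL2L1 was among them. Of 14 T cell markers, 13 were in the table, and their summed FPKM was 1737 in both sh-Ctrl libraries, 1751 to 1924 in sh-CBAP, 1590 to 1601 in CBAP-reconstituted and 2034 to 2477 in CBAP-KO cells. CD5 (0.180 and 0.231), CD28 (2.93 and 2.59) and CD7 (39.0 and 38.2) were low in CBAP-reconstituted cells, against 19.7 to 27.4, 24.1 to 37.5 and 124 to 205 FPKM elsewhere. CD2 (10.97 and 10.28) and CD247 (73.5 and 74.0) were also lowest in those cells, against 21.15 to 83.75 and 78.1 to 94.4 FPKM elsewhere. Conversely RAG1 (31.5 and 31.1), TRAT1 (58.5 and 57.6) and CD1E (25.6 and 24.5) were highest there, against 1.05 to 22.1, 19.2 to 54.6 and 1.49 to 24.4 FPKM elsewhere, while the CBAP-reconstituted values of CD3D, CD3E, CD3G, LCK and ZAP70 lay within the range of the other libraries. The part of this in the family's results was not tested. Of 6 B cell markers only CD79A was in the table, at 0.732 to 22.5 FPKM, and of 6 erythroid and other markers 2 were, at a summed 1.13 to 5.76 FPKM, while none of the 6 myeloid markers was.

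**Figure D1:**
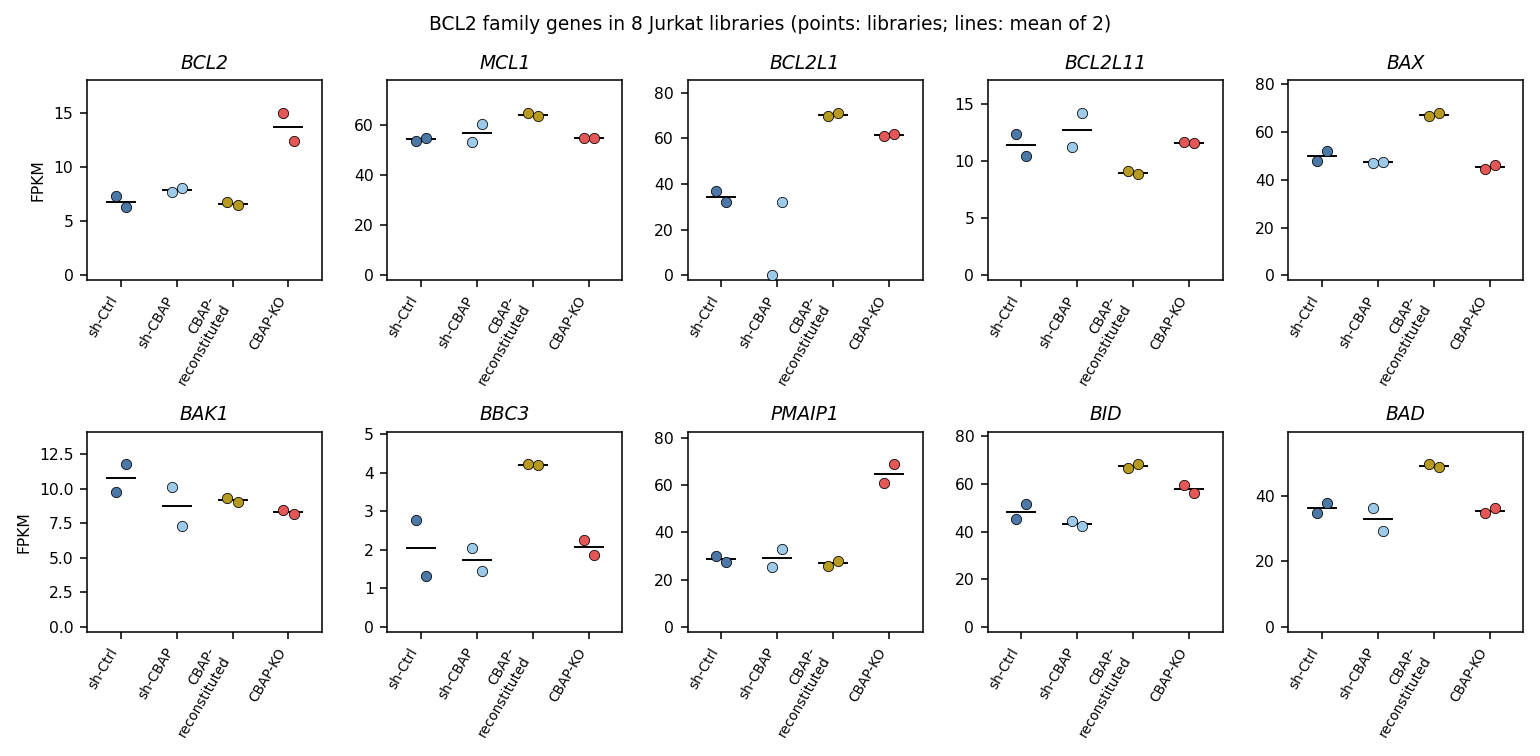
FPKM (linear axis from 0) of each BCL2 family gene in the 8 libraries, as points colored by condition, with lines at the mean of 2 libraries where neither is listed at 0. BCL2 and PMAIP1 stand higher in CBAP-KO cells (12.5 to 15.0 and 60.7 to 68.9 FPKM) than in every other library, and BAX and BAD stand higher in CBAP-reconstituted cells.

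Among the anti-apoptotic members, BCL2 RNA was about 2-fold higher in CBAP-KO than in CBAP-reconstituted cells, MCL1 was slightly lower and BCL2L1 could not be compared in the shRNA set. BCL2, the founding member of the family, had 7.31 and 6.34 FPKM in sh-Ctrl, 7.67 and 8.08 in sh-CBAP, 6.75 and 6.53 in CBAP-reconstituted and 15.0 and 12.5 in CBAP-KO cells. Both CBAP-KO libraries exceeded the other 6, which spanned only 6.34 to 8.08 FPKM. Within the CRISPR set the mean rose from 6.64 ± 0.156 to 13.7 ± 1.82 FPKM (SD, n = 2 each), a log2 change of 0.94 (SE 0.11, limma adjusted p = 0.0013). Within the shRNA set BCL2 differed by 0.18 (SE 0.11, limma adjusted p = 0.31), although the 2 sh-CBAP libraries lay above both sh-Ctrl libraries.

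MCL1, a short-lived protein that holds BAK1 and BIM in check, was the most abundant anti-apoptotic member in sh-Ctrl and sh-CBAP cells. It had 53.8 and 55.0 FPKM in sh-Ctrl, 53.3 and 60.4 in sh-CBAP, 64.9 and 63.5 in CBAP-reconstituted and 54.7 and 54.7 in CBAP-KO cells. The CBAP-reconstituted libraries were the highest, and the CBAP-KO libraries lay within the range of the shRNA set. MCL1 fell by 0.23 on the log2 scale in the CRISPR set (SE 0.067, limma adjusted p = 0.035), a call lost under quantile normalization (fell by 0.03, adjusted p = 0.62) and without any 1 library of the CRISPR set or of sh-Ctrl cells (adjusted p up to 0.16). In the shRNA set the difference was 0.06 (SE 0.067, limma adjusted p = 0.59).

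BCL2L1, which encodes BCL-XL, had 36.9 and 32.1 FPKM in sh-Ctrl cells, 69.7 and 71.3 in CBAP-reconstituted and 60.9 and 61.9 in CBAP-KO cells. In sh-CBAP cells it was listed at 0 in replicate 1 and at 32.3 FPKM in replicate 2, so no mean or fold is given for that condition. All 4 libraries of the CRISPR set lay above all 4 of the shRNA set. Within the CRISPR set the log2 difference was -0.20, with an SE of 1.50 and a limma adjusted p of 0.93 because the fit shares its spread with the library listed at 0. With only the 4 libraries of that set the same difference had a limma adjusted p of 0.0050, in a fit where 67.8% of all genes passed. That was the 1 call of BCL2L1 in this set among 17 alternatives. After quantile normalization the difference was 0.0069.

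Of the effectors, BAX fell within the CRISPR set while BAK1 did not pass the test, and neither passed in the shRNA set. BAX, which travels from the cytosol to the outer membrane to form pores, had 48.0 and 52.2 FPKM in sh-Ctrl, 47.0 and 47.5 in sh-CBAP, 66.5 and 68.0 in CBAP-reconstituted and 44.5 and 46.2 in CBAP-KO cells. The CBAP-reconstituted libraries were high, and the other 6 lay between 44.5 and 52.2 FPKM. BAX fell by 0.56 on the log2 scale in the CRISPR set (SE 0.056, limma adjusted p = 0.00083), from 67.2 ± 1.04 to 45.3 ± 1.16 FPKM (SD, n = 2 each). The shRNA-set difference was -0.08 (SE 0.056, limma adjusted p = 0.38).

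BAK1, the effector that resides on the outer membrane, had 9.75 and 11.8 FPKM in sh-Ctrl, 10.2 and 7.31 in sh-CBAP, 9.31 and 9.04 in CBAP-reconstituted and 8.46 and 8.15 in CBAP-KO cells. Its libraries overlapped between sh-Ctrl and sh-CBAP cells, and the 2 sh-CBAP libraries differed by a ratio of 1.39. No contrast of BAK1 passed the test (log2 difference -0.28, SE 0.16, limma adjusted p = 0.28 in the shRNA set; -0.13, SE 0.16, adjusted p = 0.53 in the CRISPR set). Per length, BAX was 4.43 to 7.52 times as abundant as BAK1 in every library.

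Of the BH3-only members, PMAIP1 rose, BAD and BBC3 fell, and BCL2L11 and BID did not pass the test in the CRISPR set, while none of the 5 passed in the shRNA set. PMAIP1, which encodes NOXA and is known as a target of the integrated stress response, had 29.9 and 27.4 FPKM in sh-Ctrl, 25.3 and 32.8 in sh-CBAP, 26.0 and 27.7 in CBAP-reconstituted and 60.7 and 68.9 in CBAP-KO cells. The other 6 libraries did not exceed 32.8 FPKM, and both CBAP-KO libraries were above 60 FPKM. The mean rose from 26.8 ± 1.25 to 64.8 ± 5.76 FPKM (SD, n = 2 each) in the CRISPR set, a log2 change of 1.24 (SE 0.13, limma adjusted p = 0.0011) and the largest of the 10 members there. In the shRNA set the difference was 0.01 (SE 0.13, limma adjusted p = 0.98), with overlapping libraries.

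BAD, which is held inactive by phosphorylation and 14-3-3 binding, had 34.8 and 37.9 FPKM in sh-Ctrl, 36.4 and 29.4 in sh-CBAP, 49.8 and 49.0 in CBAP-reconstituted and 34.8 and 36.4 in CBAP-KO cells. As with BAX, the CBAP-reconstituted libraries stood above the other 6. BAD fell by 0.46 on the log2 scale in the CRISPR set (SE 0.11, limma adjusted p = 0.015), a call lost under quantile normalization (adjusted p = 0.091) and without any 1 library of the CRISPR set (up to 0.081). GPR137, which overlaps BAD on the opposite strand, is the only gene of the table that overlaps a member, and the strandedness of the libraries is not stated, so shared reads cannot be told apart. It had 16.6 to 18.8 FPKM in the shRNA set, 26.9 and 27.1 in CBAP-reconstituted and 23.7 and 21.0 in CBAP-KO cells, and fell by 0.27 on the log2 scale in the CRISPR set (SE 0.084, limma adjusted p = 0.044).

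BBC3, which encodes PUMA, was the least abundant member, at 2.78 and 1.33 FPKM in sh-Ctrl, 2.05 and 1.44 in sh-CBAP, 4.23 and 4.20 in CBAP-reconstituted and 2.26 and 1.86 in CBAP-KO cells. The sh-Ctrl libraries differed by a ratio of 2.10, no less than the CRISPR-set means (4.21 against 2.06 FPKM). Its fall of 0.77 on the log2 scale in the CRISPR set (SE 0.24, limma adjusted p = 0.044) was lost with a pseudocount of 0.1 (adjusted p = 0.064), with no filter (0.054), after median-of-ratios scaling (0.054) and without any 1 library of the CRISPR set (up to 0.16).

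BCL2L11, which encodes BIM and is a known FOXO target, had 12.4 and 10.4 FPKM in sh-Ctrl, 11.3 and 14.3 in sh-CBAP, 9.15 and 8.87 in CBAP-reconstituted and 11.7 and 11.6 in CBAP-KO cells. The CBAP-reconstituted libraries were the lowest, and the CRISPR-set difference of 0.34 (SE 0.13) had a limma adjusted p of 0.070. It passed under 5 of 18 alternatives. BID, the substrate of caspase-8 that links death receptors to mitochondria, had 45.1 and 51.7 FPKM in sh-Ctrl, 44.4 and 42.3 in sh-CBAP, 66.9 and 68.3 in CBAP-reconstituted and 59.7 and 56.2 in CBAP-KO cells. Both sh-CBAP libraries were below both sh-Ctrl libraries and both CBAP-KO below both CBAP-reconstituted libraries, with log2 differences of -0.15 (SE 0.077, limma adjusted p = 0.25) and -0.22 (SE 0.077, limma adjusted p = 0.059).

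**Figure D2:**
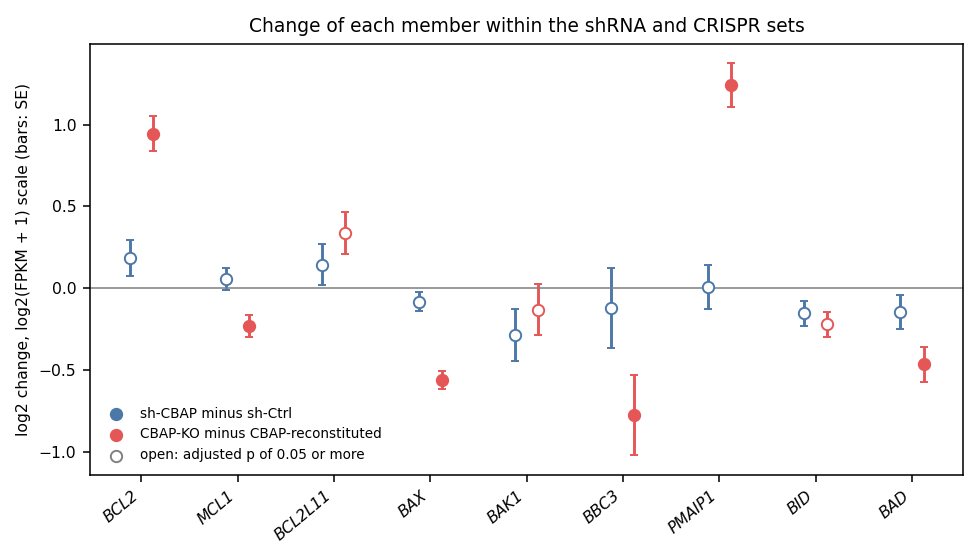
Log2 change (vertical axis, log2(FPKM + 1) scale, bars show the SE) of 9 members in the shRNA set (blue) and the CRISPR set (red), with filled points for limma adjusted p under 0.05 and BCL2L1 left out because it is listed at 0 in 1 library. The 6 filled points all belong to the CRISPR set, with BCL2 and PMAIP1 above 0 and MCL1, BAX, BBC3 and BAD below.

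Counted over the family, 6 of 10 members passed in the CRISPR set, 2 higher and 4 lower, against 49.9% of all genes tested (23.9% higher and 25.9% lower). The libraries of the 2 conditions did not overlap for 10 of 10 members there, against 85.7% of all genes. The family therefore changed at about the rate of the table as a whole. In the shRNA set 0 of 10 members had an unadjusted limma p under 0.05, where 3457 of the 11427 genes tested did. After adjustment 0 of 10 members passed as well, and the background was 12.3%. That background moved with the libraries fitted, from 2.68% without CBAP-reconstituted replicate 2 to 20.8% without sh-CBAP replicate 2, and was 0.656% in the 4 libraries of the set alone. The libraries did not overlap for 3 members (BCL2, BAX and BID), against 50.6% of all genes. The median change of the members was -0.21 in the CRISPR set and -0.10 in the shRNA set, where the medians of all genes were 0 and -0.06. Across both sets, the 4 CBAP-deficient libraries were compared with the 4 CBAP-expressing ones, the classes by which the study ranked genes. There 0 of 10 members passed by limma (background 0.621%). An unadjusted p under 0.05 was found for 2 members, and for 2397 of the 11427 genes tested. The 2 members were BCL2, with a log2 difference of 0.56 (SE 0.21, limma adjusted p = 0.18), and BAX, with -0.32 (SE 0.12, adjusted p = 0.20). They were the only members whose 4 and 4 libraries did not overlap (background 14.9%).

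Whether a member responded differently in the 2 sets was tested by subtracting its CRISPR-set change from its shRNA-set change. It differed for 3 of 10 members, against 33.8% of all genes. The difference was -1.23 for PMAIP1 (SE 0.19, limma adjusted p = 0.0066), -0.76 for BCL2 (SE 0.15, adjusted p = 0.015) and 0.48 for BAX (SE 0.080, adjusted p = 0.0084). For BCL2 the adjusted p became 0.063 and 0.070 when CBAP-reconstituted replicate 1 or 2 was left out. MCL1, with a difference of 0.29 (SE 0.095), had an adjusted p of 0.065.

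The 4 condition means of each member were ordered, and neighbors in that order were compared. The order came from the same values as the tests, so a step is read only as past the threshold or not. For BCL2 and PMAIP1 the condition apart was CBAP-KO. It lay above the next condition, sh-CBAP, by 0.73 (SE 0.11, limma adjusted p = 0.0033) and 1.14 (SE 0.13, adjusted p = 0.0015). The steps between sh-CBAP, sh-Ctrl and CBAP-reconstituted did not pass the test on the values as deposited. For BAX and BAD the condition apart on the values as deposited was CBAP-reconstituted, above sh-Ctrl by 0.42 (SE 0.056, limma adjusted p = 0.0038) and 0.43 (SE 0.11, adjusted p = 0.025). The 3 lower conditions of BAX (50.1, 47.3 and 45.3 FPKM) and of BAD (36.3, 35.6 and 32.9 FPKM) had no step past the threshold. BBC3 was likewise highest in CBAP-reconstituted cells, next to CBAP-KO cells (limma adjusted p = 0.044). For BID, CBAP-KO and sh-Ctrl cells (57.9 and 48.4 FPKM) differed by 0.26 (SE 0.077, limma adjusted p = 0.036) on the values as deposited, but by 0.099 after median-of-ratios scaling (adjusted p = 0.41). On the values as deposited MCL1, BCL2L11 and BAK1 had no neighbors past the threshold, and in all 6 of 27 steps passed. Of all genes, 51.7% passed between CBAP-KO and sh-Ctrl cells and 50.1% between CBAP-reconstituted and sh-CBAP cells. These shares are for fixed pairs of conditions and are no measure for a count of steps between neighbors.

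The 2 sets were written out differently. Numbers typically ran to 8 decimal places in each shRNA-set library and to 4 in each CRISPR-set library. Genes listed at 0 numbered 1182 to 1256 per shRNA-set library and 606 to 820 per CRISPR-set library. Values above 0 and below 0.1 FPKM numbered 8 to 37 and 259 to 337, respectively. Whether the sets were processed separately was not tested, and a comparison using both cannot tell that apart from shRNA against CRISPR. Comparisons across the sets also carry a shift of the whole table. The median of all genes was 0.17 higher in CBAP-reconstituted and 0.14 higher in CBAP-KO than in sh-Ctrl cells and 0.20 higher in CBAP-KO than in sh-CBAP cells, and all 3 came to within 0.02 of 0 after median-of-ratios scaling. Members passing were 5 of 10 between CBAP-reconstituted and sh-Ctrl cells (background 39.4%) and 3 of 10 between CBAP-KO and sh-CBAP cells (background 52.8%). After scaling, BAX remained higher in CBAP-reconstituted than in sh-Ctrl cells (0.26, SE 0.062, limma adjusted p = 0.028) while BAD did not pass (0.27, SE 0.14, adjusted p = 0.19). BCL2 and PMAIP1 remained higher in CBAP-KO than in sh-CBAP cells (0.52, SE 0.11, adjusted p = 0.010; and 0.91, SE 0.10, adjusted p = 0.0014). Calls absent on the values as deposited but made after scaling put CBAP-KO cells below sh-CBAP cells for BAX (-0.29, SE 0.062, limma adjusted p = 0.013), MCL1 (-0.28, SE 0.039, adjusted p = 0.0027) and BCL2L11 (-0.33, SE 0.10, adjusted p = 0.040). MCL1 was then also lower in CBAP-KO than in sh-Ctrl cells (-0.15, SE 0.039, limma adjusted p = 0.023, against 0.97 after quantile normalization) and BCL2L11 lower in CBAP-reconstituted than in sh-Ctrl cells (-0.46, SE 0.10, adjusted p = 0.022). BAX, too, was then lower in CBAP-KO than in sh-Ctrl cells (-0.30, SE 0.062, limma adjusted p = 0.011). After quantile normalization that BAX difference was -0.16 (SE 0.047, limma adjusted p = 0.032). Median-of-ratios scaling also put BCL2 lower in CBAP-reconstituted than in sh-CBAP cells (-0.42, SE 0.11, limma adjusted p = 0.025). That BCL2 difference did not pass on the values as deposited (limma adjusted p = 0.15) or after quantile normalization (0.054).

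Ratios within a library do not depend on how libraries are scaled to each other and are given as a description. They do keep shifts that go with transcript length. In the CRISPR set the median log2 change was -0.38 for all genes in the length decile of BAX and 0.13 in that of BCL2. The part of this in the ratios was not tested. The BCL2 to BAX ratio was 0.152 and 0.122 in sh-Ctrl, 0.163 and 0.170 in sh-CBAP, 0.102 and 0.0960 in CBAP-reconstituted and 0.338 and 0.270 in CBAP-KO cells. Both CBAP-KO libraries lay above the rest, of which the highest was 0.170. The ratio of MCL1 to PMAIP1, an anti-apoptotic gene to that of its BH3-only partner, was 1.8 and 2.01 in sh-Ctrl, 2.11 and 1.84 in sh-CBAP, 2.50 and 2.29 in CBAP-reconstituted and 0.900 and 0.794 in CBAP-KO cells. PMAIP1 thus exceeded MCL1 only in the CBAP-KO libraries. The ratio of BCL2 to its binding partner BCL2L11 was 0.566 to 0.738 in 6 libraries and 1.29 and 1.07 in CBAP-KO cells.

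**Figure D3:**
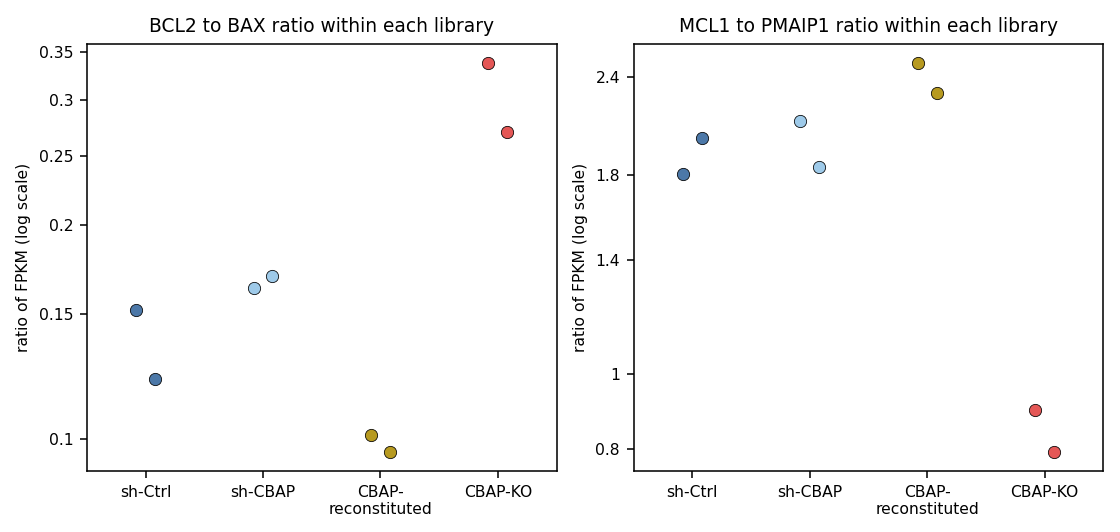
Ratio of FPKM within each library (log axis), BCL2 to BAX on the left and MCL1 to PMAIP1 on the right, with 1 point per library. The 2 CBAP-KO points lie at 0.270 and 0.338 on the left, above all others, and at 0.794 and 0.900 on the right, below all others.

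By role, and without BCL2L1 because of its listed 0, the BH3-only genes made up 49.4 to 51.8% of the family's summed FPKM in 6 libraries and 58.0 and 59.0% in CBAP-KO cells. The effectors made up 22.5 to 25.2% in those 6 libraries and 18.2 and 18.3% in CBAP-KO cells. The anti-apoptotic share, 22.7 to 28.1%, did not set CBAP-KO cells apart. PMAIP1 alone held 17.2 and 19.2% of the summed FPKM of all 10 members in CBAP-KO cells. Elsewhere it held 6.96 to 11.9%. BAD, BBC3 and BID had lower means in CBAP-KO than in CBAP-reconstituted cells, and BCL2L11 a higher one. The BH3-only share is thus no rise of the class as a whole, and a higher PMAIP1 also lowers the shares of the other classes. Summed over all 10 members the family had 238 to 286 FPKM in the shRNA set, where the lowest library is that with BCL2L1 at 0, and 353 to 376 FPKM in the CRISPR set.

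**Figure D4:**
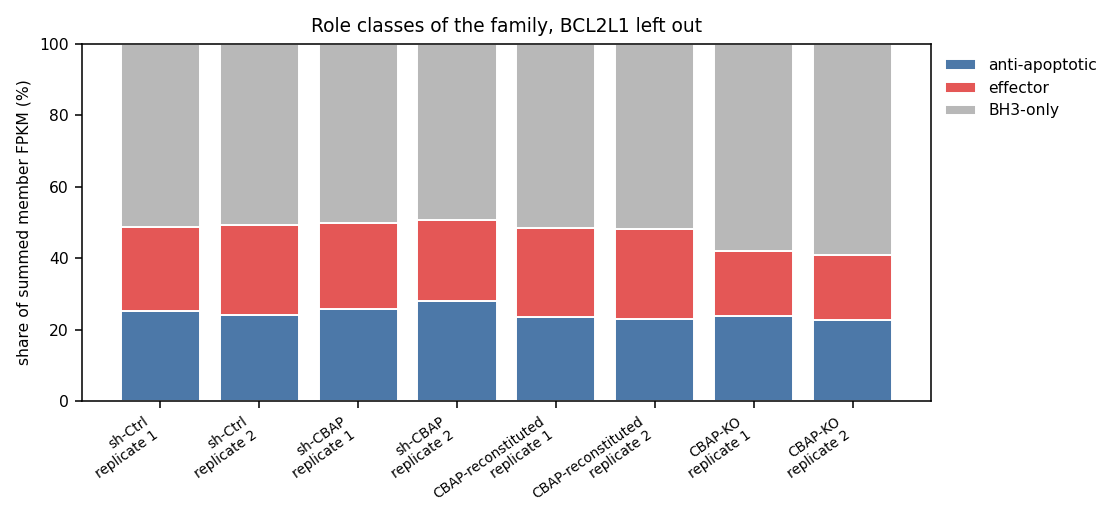
Share (percent, stacked bars from 0 to 100) of the summed FPKM of 9 members held by the anti-apoptotic, effector and BH3-only genes in each of the 8 libraries, BCL2L1 left out. The BH3-only share is 58.0 and 59.0% in the CBAP-KO libraries and 49.4 to 51.8% in the other 6. It includes PMAIP1, which had 60.75 and 68.89 FPKM in CBAP-KO cells and at most 32.81 FPKM elsewhere.

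The 3 members whose changes differed between the sets were looked at further through the 250 bases before the 5′ end of each gene in GENCODE 44, none of which overlaps an annotated exon. Capitals mark matches on either strand to 8 short motifs: the E-box CACGTG, the FOXO core GTAAACA, the cyclic AMP response element TGACGTCA, the AP-1 site TGANTCA, the GC box GGGCGG, the box named CCAAT, the TATA box TATAAA and the E2F site TTTGGCGC. No motif match overlapped another.
BCL2: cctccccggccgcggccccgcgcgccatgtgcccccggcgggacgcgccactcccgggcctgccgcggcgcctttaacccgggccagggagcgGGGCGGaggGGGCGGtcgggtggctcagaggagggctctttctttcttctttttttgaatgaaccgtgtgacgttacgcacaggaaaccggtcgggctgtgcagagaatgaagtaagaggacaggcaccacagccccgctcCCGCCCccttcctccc
PMAIP1: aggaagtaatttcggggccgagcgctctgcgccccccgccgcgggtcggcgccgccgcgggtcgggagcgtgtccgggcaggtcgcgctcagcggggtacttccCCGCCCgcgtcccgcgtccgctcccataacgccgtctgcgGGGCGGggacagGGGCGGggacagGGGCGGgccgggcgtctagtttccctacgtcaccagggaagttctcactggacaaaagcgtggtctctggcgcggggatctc
BAX: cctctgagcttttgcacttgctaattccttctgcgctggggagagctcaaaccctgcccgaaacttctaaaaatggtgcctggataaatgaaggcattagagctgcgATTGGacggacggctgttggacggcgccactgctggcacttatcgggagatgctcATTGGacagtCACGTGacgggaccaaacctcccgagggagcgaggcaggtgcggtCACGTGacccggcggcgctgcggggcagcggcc
The windows lie at chr18:60987362-60987611 (minus strand), chr18:57566978-57567227 (plus) and chr19:49457822-49458071 (plus) of GRCh37. BCL2 held 3 GC boxes and PMAIP1 held 4, a motif found in 42.6% of 34788 RefSeq promoter windows of the same length (GRCh38.p14). BAX held none, but had 2 E-boxes, found in 6.31% of those windows, and 2 CCAAT boxes, found in 32.0%. The matches are a description of the letters and not of binding.

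BCL2 and PMAIP1 both lie on chromosome 18, 3.22 Mb apart. The median CRISPR-set change of the 135 genes tested on that chromosome was 0.15, against 0 for all genes, and of the 3 tested genes between BCL2 and PMAIP1 0 were called higher and 1 lower. Transcript composition also moved with the CRISPR-set change. The median was 0.18 in the tenth of genes with the lowest GC, which holds PMAIP1, and -0.12 in that with the highest GC, which holds BBC3 and BAD. In the tenth with the shortest transcripts, which holds BAX and BAD, the median was -0.38, and in that with the longest 0.19. The members' own changes beside the median of their length decile were -0.56 for BAX and -0.46 for BAD (decile median -0.38), 0.94 for BCL2 (0.13) and 1.24 for PMAIP1 (-0.11). The part of length and GC in these changes was not tested.

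The genes whose pattern over the 8 libraries was closest to that of BCL2 were ATAD2B, CTAGE5, PGBD2, CD99P1 and KIAA0240. Their root-mean-square differences from the centered BCL2 profile were 0.068 to 0.10 in log2(FPKM + 1), against a median of 0.44 over all genes tested. The nearest, ATAD2B, had 4.51 to 5.96 FPKM in 6 libraries and at least 9.30 in both CBAP-KO libraries. Their likeness to BCL2 was fixed by the choice.

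A further list of 16 genes held other BCL2 family genes together with BNIP genes, which are named as BCL2-interacting. Of these, 12 were in the table and 8 were tested, so their counts are not counts of the family alone. In the CRISPR set 7 of 8 passed, 3 higher and 4 lower (median -0.26), where 49.9% of all genes did, 23.9% higher and 25.9% lower (median 0). Of the 8, 2 passed in the shRNA set, both lower (median -0.20), where 3.62% of all genes were higher and 8.7% lower (median -0.06). The same shares of all genes apply to the lists that follow. BMF, a BH3-only gene tied to the cytoskeleton, rose from 0.858 and 0.749 FPKM in CBAP-reconstituted to 5.45 and 5.43 in CBAP-KO cells (log2 change 1.84, SE 0.24, limma adjusted p = 0.0019). BIK, another BH3-only gene, rose from 9.50 and 9.35 to 14.2 and 15.1 FPKM (0.58, SE 0.067, adjusted p = 0.0013). BNIP3L, a receptor for mitophagy, fell by 0.75 in log2 (SE 0.17, limma adjusted p = 0.014), and BNIP1, of the endoplasmic reticulum, by 0.71 (SE 0.057, adjusted p = 0.00039). BNIP1 and BNIP3, a hypoxia-induced mitophagy receptor, were the genes that fell in the shRNA set, by 0.35 (SE 0.057, limma adjusted p = 0.020) and 0.81 (SE 0.17, adjusted p = 0.035).

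Downstream of the pores, 9 of 18 genes for caspases, the apoptosome and their inhibitors passed in the CRISPR set, 1 higher and 8 lower (median -0.39), a count at the 49.9% of all genes. ENDOG, a mitochondrial nuclease, fell by 1.01 in log2 (SE 0.073, limma adjusted p = 0.00027), from 52.3 and 50.1 to 25.2 and 24.5 FPKM. DIABLO, which is released with cytochrome c and blocks caspase inhibitors, fell by 0.62 (SE 0.079, adjusted p = 0.0019), and CASP2 rose by 0.42 (SE 0.065, adjusted p = 0.0037). In the shRNA set 4 of 18 passed, 1 higher and 3 lower. CASP9, the initiator in the apoptosome, and ENDOG were among the 3 that fell, by 0.69 (SE 0.13, limma adjusted p = 0.029) and 0.38 (SE 0.073, adjusted p = 0.029).

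Of 13 genes for mitochondrial membrane partners, 6 fell and 0 rose in the CRISPR set (median -0.42), against 49.9% of all genes passing. VDAC1, the major channel of the outer membrane, fell by 1.10 in log2 (SE 0.19, limma adjusted p = 0.0055), from 172 and 178 to 78.7 and 84.1 FPKM. VDAC3 fell in both sets, by 0.56 (SE 0.060, adjusted p = 0.0010) in the CRISPR set and as the 1 gene of the list that passed in the shRNA set by 0.34 (SE 0.060, adjusted p = 0.025).

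Upstream of BID, 8 of 10 death receptor pathway genes passed in the CRISPR set, 6 higher and 2 lower (median 0.31), against 49.9% of all genes. TNFSF10, the ligand TRAIL, rose from 0.761 and 0.682 to 4.93 and 5.47 FPKM (log2 change 1.85, SE 0.11, limma adjusted p = 0.00015), and the TNF receptor TNFRSF1A by 0.83 (SE 0.052, adjusted p = 0.00018). The adaptors FADD and TRADD fell by 0.56 (SE 0.095, limma adjusted p = 0.0053) and 0.47 (SE 0.092, adjusted p = 0.0088). In the shRNA set 3 were called higher and 1 lower: CASP10 rose by 0.80 (SE 0.18, limma adjusted p = 0.045) and TRADD fell by 0.54 (SE 0.092, adjusted p = 0.023). CFLAR, which encodes the caspase-8 inhibitor FLIP, was called there because it was listed at 0 in both sh-Ctrl libraries, against 10.6 and 6.91 FPKM in sh-CBAP cells.

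Among 21 genes for kinases, 14-3-3 proteins and ubiquitin enzymes that act on family proteins, 4 were higher and 4 lower in the CRISPR set (median 0.03), fewer than the 49.9% of all genes. YWHAE, a 14-3-3 protein, fell from 716 and 723 to 340.5 and 347 FPKM (log2 change -1.06, SE 0.089, limma adjusted p = 0.00045). PIM3, of a kinase family that phosphorylates BAD, fell by 1.14 (SE 0.11, adjusted p = 0.00081), and its relative PIM1 rose by 0.67 (SE 0.14, adjusted p = 0.010). GSK3B, a kinase that marks MCL1 for degradation, rose in both sets, by 0.48 (SE 0.062, limma adjusted p = 0.0020) in the CRISPR set and by 0.39 (SE 0.062, adjusted p = 0.020) in the shRNA set. YWHAG fell by 0.23 (SE 0.045, adjusted p = 0.031) in the shRNA set, where 2 genes were called higher and 1 lower; the second higher call was HUWE1, an MCL1 ubiquitin ligase listed at 0 in both sh-Ctrl libraries and at 16.5 and 19.6 FPKM in sh-CBAP cells.

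Of 16 genes for transcription factors known to act on the family, 5 were higher and 2 lower in the CRISPR set (median 0.08), against 49.9% of all genes passing. JUN, a subunit of the AP-1 factor, rose by 0.67 in log2 (SE 0.10, limma adjusted p = 0.0038). MYC fell by 0.25 (SE 0.072, adjusted p = 0.030). E2F1, the other gene called lower, was called because it was listed at 0 in both CBAP-KO libraries. It was listed at 0 in 6 libraries and at 28.8 FPKM in both CBAP-reconstituted libraries. In the shRNA set FOXO1 rose by 0.61 (SE 0.13, limma adjusted p = 0.034) and JUN fell by 0.66 (SE 0.10, adjusted p = 0.020). Between CBAP-deficient and CBAP-expressing cells as classes, 0 genes of these lists passed by limma.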

How the data were processed

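RNA-seq libraries (100-bp paired-end) were aligned to hg19 by the authors with TopHat 2 after CASAVA 1.8, and the deposited FPKM of 13453 genes come from cuffdiff. Versions other than that of CASAVA, the annotation and the library scaling are not given in the sources used here. FPKM without counts leaves the depth unknown. Summed FPKM was 362082 to 434742 per library.

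The members and lists were chosen with earlier results of these data known. Groups came from the labels. The genes named were the members, TMEM102, in each list the 2 genes with the largest change per set and direction among those called with non-overlapping libraries, the 5 nearest BCL2 and any overlapping a member. A list and some genes of the lists are not reported here. Values were tested as log2(FPKM + 1), so changes of low genes are understated, with limma 3.58.1 (R 4.3.3; 1 mean per condition, trend) for 11427 genes with a mean of at least 1 FPKM, Benjamini-Hochberg adjustment and a threshold of 0.05, and checked on simulated data. The CBAP-deficient against CBAP-expressing comparison had 1 mean per class. Alternatives were other pseudocounts, filters, scalings, blocks and left-out libraries. Coordinates are those of GENCODE 44 on GRCh37, the sequence of hg19. Protein sequences were not used here.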

Additional observations from a re-analysis of the deposited data

Results flagged for a closer look

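BCL2L11 had 14.3 FPKM in sh-CBAP replicate 2, apart from the other CBAP-deficient libraries, which lay between 11.3 and 11.7 FPKM. The gap took a share of 0.866 of the range of these 4 libraries, above Dixon's 95% critical value for 4 values. As 20 such groups were examined, and chance sets apart about 1 in 20, this flag is no more than chance gives.

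The change with CBAP differed between the shRNA and the CRISPR sets for 3 members by the difference of the changes itself (shRNA minus CRISPR, log2; limma with Benjamini-Hochberg adjustment over all genes). It was -0.76 for BCL2 (adjusted p = 0.015), 0.48 for BAX (adjusted p = 0.0084) and -1.23 for PMAIP1 (adjusted p = 0.0066). These comparisons share all 8 libraries with those of the report, and 33.8% of all genes passed the same test.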

How the results depend on the processing

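The number of members past the threshold was 0 under every alternative tried for the classes, and 0 in the shRNA set under every change of pseudocount, filter, scaling, trend and fit. In the CRISPR set it ran from 4 (quantile normalization, with 51.3% of all genes) to 9 (only the 4 libraries of the set, with 67.8%). For the difference between the sets, where 29.2 to 38.3% of all genes passed, the number of members ran from 3 to 4. Leaving out 1 library at a time, it ranged from 0 to 1 in the shRNA set (1 without either sh-CBAP library: BAD without replicate 1, adjusted p = 0.049, BCL2L1 without replicate 2), from 3 to 7 in the CRISPR set (3 without any 1 of its own libraries) and from 2 to 6 for the difference between the sets. BCL2, BAX and PMAIP1 passed in the CRISPR set under 18 of 18 alternatives.

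Directions turned under quantile normalization for MCL1 between the classes (0.063), BAX in the shRNA set (0.0035), BCL2L1 in the CRISPR set (0.0069), and for the difference between the sets of BAK1 (0.012) and BID (-0.050). Leaving out 1 library gave ranges that cross 0 in the shRNA set for MCL1 (-0.028 to 0.15), BCL2L11 (-0.012 to 0.30), BBC3 (-0.47 to 0.23), PMAIP1 (-0.17 to 0.19) and BAD (-0.29 to 0.0059), between the classes for BCL2L1 (-1.98 to 0.0085), and for the difference between the sets of BCL2L1 (-4.95 to 0.10), BAK1 (-0.37 to 0.057) and BID (-0.029 to 0.16). The cause was not tested.

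Over all genes, calls between the classes numbered 71, but 1404 with the set as a covariate, 167 after median-of-ratios scaling, 201 after quantile normalization, 185 without a filter and 11 with the replicate block. Same-numbered libraries deviated together in sh-Ctrl and sh-CBAP cells (r = 0.15 across genes, which are not independent) but not in the CRISPR set (r = 0.02), so the numbers were not taken to pair them. With the replicate block 6 members passed in the CRISPR set, 3 for the difference between the sets and 0 in the others. Without counts the limit set by depth is unknown, and 2 libraries per condition limit the precision.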
